A study of Mus musculus with 6 samples.

Results

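Versican and the genes that make, bind and break down hyaluronan were examined in newborn lenses of wild-type and Pax6 heterozygous mice. The members are all probe sets annotated to 9 genes, Vcan (older name Cspg2), Bcan, Ncan, Hapln1, Has2, Has3, Hyal2, Cemip2 (older name Tmem2) and Cd44. They hold 17 of the 22626 probe sets tested and 9 of 12393 genes, and no member probe set is shared with another gene. These genes were put together with the genotype difference of Vcan already known, so their differences between genotypes are given as a description, without a test of their own.

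The arrays measured total RNA of the lens at postnatal day 1 of 3 wild-type (NMRI background) and 3 Pax6 heterozygous mice, with both lenses of 1 mouse pooled per array. The heterozygous mice were Pax6lacZ/+, with lacZ in place of a working copy of Pax6 in every cell of the body. Their lenses are described by the study as smaller, with a stalk to the cornea in many animals. The sex of the pups was not given in the sources used here. The brightest Pax6 probe set read 1169, 1760 and 963 in wild-type replicates 1 to 3 and 942, 1170.1 and 882 in heterozygous replicates 1 to 3. All 3 same-numbered pairs had the lower value in the heterozygous mouse, although the genotypes overlapped. All 9 measured lens markers, crystallins and fiber membrane and filament genes, had a median signal of at least 50. Their summed signal ran from 91784 to 107840 (wild type) and from 88658 to 105570 (heterozygous).

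Hyaluronan is a long unbranched sugar chain that is extruded through the plasma membrane by hyaluronan synthases (Has). Large chondroitin sulfate proteoglycans of the lectican family, among them versican (Vcan), brevican (Bcan) and neurocan (Ncan), bind the chain by their N-terminal globular domain, and link proteins such as Hapln1 lock that binding. Cd44 is the main cell surface receptor for hyaluronan, while Hyal2 and Cemip2 are hyaluronidases at the cell surface. In the eye this matrix is best known from the vitreous and from the mesenchyme of the anterior segment, and versican is common in embryonic mesenchyme and vessel walls. In the RefSeq gene table Vcan lies next to Hapln1 on chromosome 13, Bcan next to Hapln2, and Ncan next to Hapln4. Cd44 lies on chromosome 2, as Pax6 does.

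The promoter of Vcan is shown because the Vcan probe sets had the largest differences between genotypes among the members. No member passed the test between genotypes after adjustment for the number of probe sets tested. Another reason is that the study reported Pax6 on lens chromatin at this locus. It found Pax6 at the promoter and at a distal region, by chromatin immunoprecipitation read on arrays and by quantitative PCR. The RefSeq promoter table used here has an entry for 6 of the 9 members. The 250 bases before the Vcan start, chr13:89742513-89742762 (GRCm38.p6, minus strand), read 5′ to 3′ as follows, with capitals marking GGGCGG (GC box) and CCAAT on either strand.
Vcan promoter: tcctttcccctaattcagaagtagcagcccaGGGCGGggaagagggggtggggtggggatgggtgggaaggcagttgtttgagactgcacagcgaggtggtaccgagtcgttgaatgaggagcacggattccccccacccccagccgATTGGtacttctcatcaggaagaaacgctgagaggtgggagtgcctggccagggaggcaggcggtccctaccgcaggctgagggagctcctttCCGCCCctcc
This window has a GC content of 62.4%, where the median of 32851 promoter windows of the same length is 52.4%. GGGCGG occurs 2 times, at base 32 on the strand shown and at base 241 on the other, and 32.7% of all windows hold it. CCAAT occurs once, at base 148 on the other strand, and 33.8% of windows hold it. For the consensus of the Pax6 paired domain, the fixed letters TTCACGC are not in this window on either strand, and 1.03% of windows hold them. The shorter stretch that the study marks as the core starts with the last C of these letters and allows 4 spellings. It occurs once, as CATCA at base 160 on the strand shown, and 77.9% of windows hold at least 1 of the spellings on either strand. The matches are a description of the letters and no binding site is read from them. The primers that the study lists for Vcan region A on chromatin do not occur in this window, and they are given for orientation.
Vcan A forward: aactgtgcaatgacccttcc
Vcan A reverse: gcaggcaccgaagaataaag
The primer pair listed for Vcan region B and the pair labelled NSR have the same letters, so neither is shown.

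Vcan had higher signals in Pax6 heterozygous than in wild-type lenses at each of 3 probe sets. The probe set 1427256_at read 268, 111 and 181 in wild-type replicates 1, 2 and 3 and 493, 389 and 429.8 in heterozygous replicates 1, 2 and 3. Every heterozygous sample lay above every wild-type sample, and the lowest heterozygous value was 1.45 times the highest wild-type value. The means were 187 ± 79.1 and 437 ± 52.4 (SD, n = 3 per genotype). On the log2 scale heterozygous exceeded wild-type lenses by 1.31 ± 0.32 (limma's standard error), or 2.49-fold. As the values are from whole lenses, more cells that make versican and more versican RNA per cell cannot be told apart. The study also reported higher Vcan (as Cspg2) in heterozygous lenses by quantitative RT-PCR, on RNA pools separate from those of the arrays.

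The other 2 Vcan probe sets gave differences of like size. The probe set 1427257_at, designed on the same cDNA as the first and so not independent of it in sequence, read 55.5, 19.8 and 26.1 for wild type and 102, 56.1 and 76.1 for heterozygotes. Its genotypes did not overlap, but only by the gap between 55.5 and 56.1, a ratio of 1.01. The probe set 1421694_a_at, whose suffix marks probes shared by several transcripts of a single gene, read 31.6, 16.9 and 16.7 for wild type and 77.5, 33.2 and 76.6 for heterozygotes. Here the lowest heterozygous value was 1.05 times the highest wild-type value. The log2 differences were 1.31 ± 0.41 for 1427257_at and 1.49 ± 0.41 for 1421694_a_at. By size the 3 probe sets ranked 15th, 17th and 11th of 22626, and 18 probe sets in all had a difference of at least 1.3 in either direction.

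**Figure D1:**
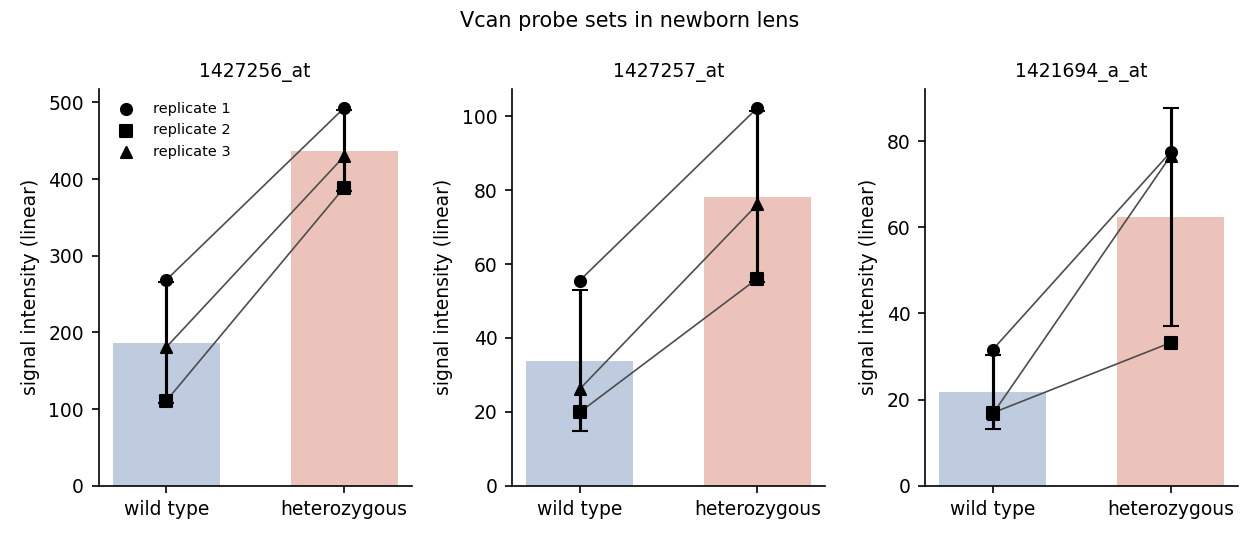
Signal intensity (linear axis from 0) of the 3 Vcan probe sets in newborn lens. Bars are means and error bars the SD of 3 mice per genotype, symbols are the samples by replicate number, and lines join samples with the same number. All 9 lines go up from wild type to heterozygous, and at 1427256_at the heterozygous samples start at 389, above the highest wild-type sample at 268.

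Paired by replicate number, all 3 pairs were above 0 at each Vcan probe set. At 1427256_at the heterozygous signal was 1.84, 3.52 and 2.38 times the wild-type signal in pairs 1, 2 and 3, and at 1427257_at it was 1.84, 2.83 and 2.92 times. At 1421694_a_at the ratios were 2.45, 1.96 and 4.59. The order of the pairs thus differed among the probe sets. Averaged over the 3 probe sets on the log2 scale, the pairs differed by 1.02, 1.43 and 1.67.

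Within an array, the Vcan probe sets kept about the same distance in both genotypes. The log2 signal of 1427256_at minus that of 1427257_at averaged 2.51 ± 0.26 for wild type and 2.52 ± 0.26 for heterozygotes (SD, n = 3). The distance from 1427256_at to 1421694_a_at was 3.08 ± 0.36 and 2.90 ± 0.57, so the means differed by less than either SD. It was smallest, at 2.49, in heterozygous replicate 3. In wild-type lenses the highest sample exceeded the lowest 2.43-fold at 1427256_at, against 1.27-fold in heterozygous lenses. At 1427257_at it was 2.80-fold against 1.82-fold, but 1421694_a_at went the other way, with 1.90-fold against 2.33-fold.

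None of the 17 member probe sets passed an adjusted p of 0.05 between genotypes with limma, and over all probe sets 0.0% passed. At an unadjusted p under 0.05 there were 4 members, all higher in heterozygous lenses, namely the 3 Vcan probe sets and 1 of Cemip2, where 1.99% of all probe sets reached it in either direction and 0.977% on the higher side. Without overlap of the genotypes were 5 members, all with heterozygous lenses above, beside 6.18% of all probe sets in either direction, 2.65% with heterozygous above and 3.53% with heterozygous below. At 2 of the 3 Vcan probe sets, 1427257_at and 1421694_a_at, the genotypes overlapped once arrays were quantile normalized or centered on their medians. Because the members were chosen on this contrast, and the study's own list from the same samples holds Vcan 1427257_at and Cemip2 1451458_at, nothing is read from these counts. Of the 17 differences 12 were above 0, with a median of 0.08, while the median over all probe sets was −0.01 and 46.5% lay above 0. Without Vcan, 9 of 14 lay above 0 with a median of 0.04, and 12 of the 14 were within 0.2 of 0.

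**Figure D2:**
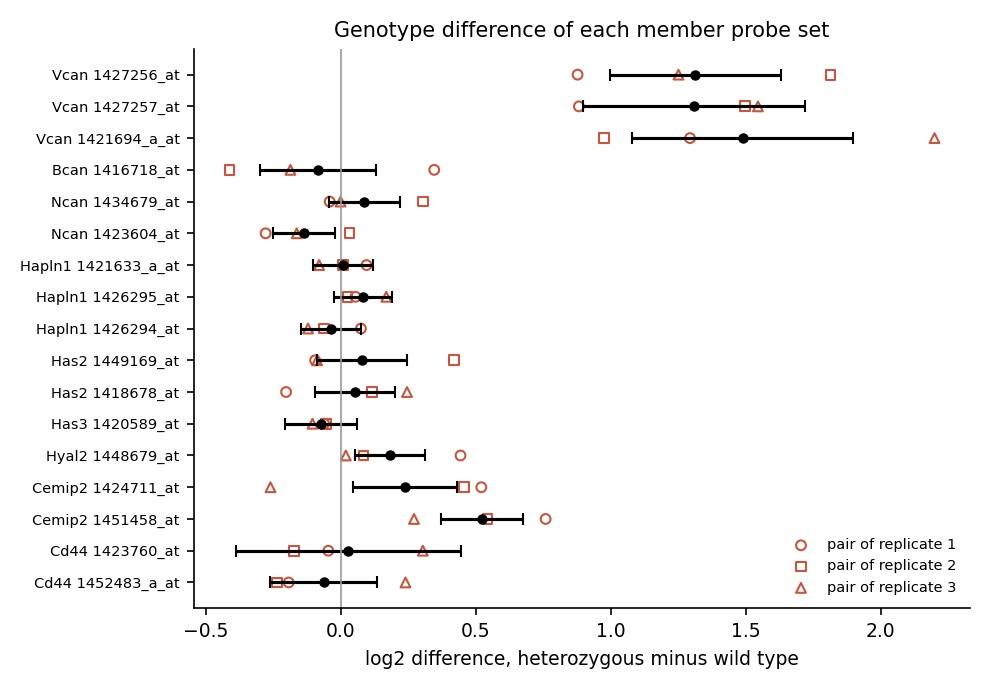
Log2 difference in signal, heterozygous minus wild type, for the 17 member probe sets. Filled points with bars are the limma estimate ± standard error, and open symbols are the 3 same-numbered pairs. The Vcan probe sets sit at 1.31 to 1.49, Cemip2 1451458_at at 0.52, and most others near 0.

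Among the other lecticans and the link protein, signals stayed near the background of the array in both genotypes. As a guide to background, the medians of 33 olfactory receptor probe sets ran from 8.16 to 13.4. Bcan, a lectican of the nervous system, read 9.76, 15.9 and 10.9 for wild type and 12.4, 12.0 and 9.57 for heterozygotes, with full overlap (−0.08 ± 0.22). Ncan, another neural lectican, read 13.3 to 16.7 at 1434679_at and 9.36 to 11.4 at 1423604_at over all 6 samples. Its differences were 0.09 ± 0.13 and −0.14 ± 0.11. The neighbor of Vcan on the chromosome, Hapln1, stayed between 8.23 and 10.8 at its 3 probe sets, with differences of 0.01, 0.08 and −0.04. Hapln1 1426295_at was among the members without overlap, but its values were 9.15, 9.15 and 8.23 against 9.50, 9.31 and 9.25, all within the olfactory receptor range. No difference between genotypes was detectable for these genes at such signals, which does not show that the transcripts are absent.

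The hyaluronan synthases were likewise dim. Has2, the synthase that most embryonic hyaluronan depends on, read 13.6, 9.65 and 11.4 for wild type and 12.7, 12.9 and 10.7 for heterozygotes at 1449169_at. Its second probe set read 8.66 to 11.5 over all samples. The differences were 0.08 ± 0.17 and 0.05 ± 0.15. Has3, which makes shorter chains, read 9.96, 9.24 and 11.3 for wild type and 9.55, 8.89 and 10.5 for heterozygotes (−0.07 ± 0.13). In all, 8 of the 17 member probe sets had a median at or under the highest olfactory receptor median, and 5 of 17, those of Vcan, Cemip2 and Cd44, a median of at least 50, where 39.2% of all probe sets did.

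**Figure D3:**
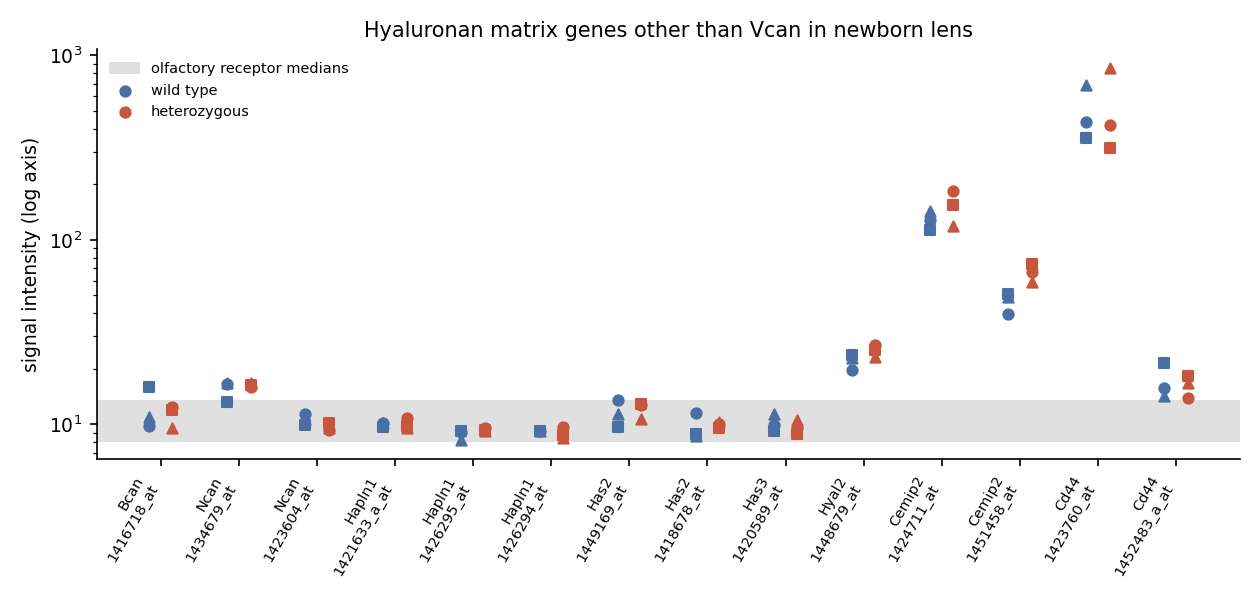
Signal intensity (log axis) of the 14 member probe sets other than Vcan. Blue symbols are wild-type and red symbols heterozygous samples, with circles, squares and triangles for replicates 1, 2 and 3. The gray band spans the medians of the olfactory receptor probe sets, 8.16 to 13.4, and holds the Hapln1 and Has3 samples, while Cemip2 1424711_at and Cd44 1423760_at lie above 100 in every sample.

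Of the hyaluronidases, Cemip2 had higher values in heterozygous lenses without overlap at 1 of 2 probe sets designed on the same cDNA, and neither passed the adjusted threshold. At 1451458_at it read 39.6, 50.6 and 48.9 for wild type and 67.0, 73.7 and 59.0 for heterozygotes. The genotypes did not overlap, the lowest heterozygous sample being 1.17 times the highest wild-type sample, and the log2 difference was 0.52 ± 0.15. At 1424711_at it read 129, 113 and 143 for wild type and 185, 154 and 119 for heterozygotes. Heterozygous replicates 1 and 2 were above all wild-type samples there, but replicate 3 was within the wild-type range (0.24 ± 0.19). The difference was 0.09 without heterozygous replicate 1, 0.15 without wild-type replicate 2 and 0.41 without heterozygous replicate 3. Hyal2, a membrane-anchored hyaluronidase, read 19.7, 23.8 and 22.9 for wild type and 26.8, 25.2 and 23.2 for heterozygotes. All 3 pairs were above 0 but the genotypes overlapped (0.18 ± 0.13, and 0.10 without wild-type replicate 1).

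Cd44, the receptor, had a genotype difference far smaller than its standard error at 1423760_at, and a spread between mice that followed the replicate number. At 1423760_at it read 433, 355 and 693 for wild type and 419.7, 314 and 855 for heterozygotes, a difference of 0.03 ± 0.42. Replicate 3 was the highest and replicate 2 the lowest sample of each genotype, and replicate 3 was 1.76 times the mean of replicates 1 and 2 in wild-type and 2.33 times in heterozygous lenses. The second probe set, 1452483_a_at, read 13.8 to 21.6 and had replicate 2 as the highest sample of each genotype, so the 2 Cd44 probe sets did not show the same pattern.

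The replicate number offers a comparison that played no part in the choice of the members, since each number occurs in both genotypes. Over all probe sets, deviations from the genotype mean were correlated at 0.645, 0.734 and 0.604 between samples with the same number and from −0.496 to −0.0751 between samples with different numbers. Such deviations cancel within each genotype, so the values for different numbers are not independent of those for the same number. What the numbers share is not given in the sources used here. In a limma F test of the replicate number with genotype in the model, 19.4% of all probe sets passed an adjusted p of 0.05, and 2 of the 17 members did. These were Cd44 1423760_at (adjusted p = 0.0127) and Vcan 1427257_at (adjusted p = 0.0235). The other 2 Vcan probe sets had adjusted p = 0.107 (1427256_at) and adjusted p = 0.0968 (1421694_a_at). The share of members that passed was below that of all probe sets. Among probe sets with a median of at least 50, 50.2% passed, and so did 2 of the 5 members among them.

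Vcan and Cd44 varied in different ways among the replicate numbers. The log2 mean of replicate 1 lay above the mean of all samples by 0.40, 0.64 and 0.51 at the Vcan probe sets 1427256_at, 1427257_at and 1421694_a_at, and that of replicate 2 below it, at −0.41, −0.53 and −0.55. For Cd44 1423760_at the values were −0.17 for replicate 1, −0.52 for replicate 2 and 0.69 for replicate 3. Both genes thus had their lowest pair in replicate 2, while the highest pair was replicate 1 for Vcan and replicate 3 for Cd44. Adding the number as a block brought the standard errors of the Vcan differences to 0.18, 0.16 and 0.23, and that of Cd44 1423760_at to 0.13. No member passed the adjusted threshold with the block either, and 0.00884% of all probe sets did.

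**Figure D4:**
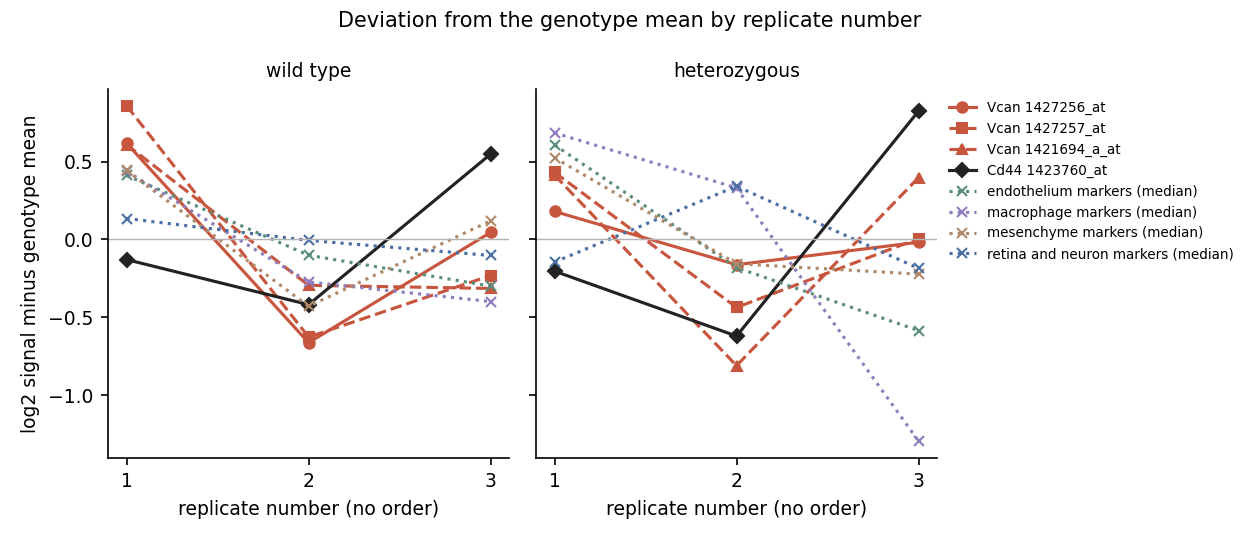
Log2 signal minus the genotype mean for each replicate number, in wild-type (left) and heterozygous (right) lenses. Solid and dashed lines are the Vcan probe sets and Cd44 1423760_at, and dotted lines the median of each marker list; replicate numbers have no order and lines only join the points of a gene. Cd44 1423760_at is highest in replicate 3 of both genotypes. The medians of macrophage (−0.40 and −1.29), endothelium (−0.30 and −0.58) and retina and neuron markers (−0.10 and −0.19) are lowest there. Vcan is lowest in replicate 2 at 5 of 6 profiles.

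Markers of neighboring tissues were measured beside Vcan, since dissected lens samples can hold other eye tissue. Of 12 measured retina and neuron markers 8 had a median of at least 50, and their summed signal ran from 987 to 1143 (wild type) and from 1326 to 1963 (heterozygous), with no overlap. Their median log2 difference was 0.44, with 10 of 12 above 0, where 47.0% of all genes lay above 0. In wild-type lenses that sum was 1143, 987 and 1015 in replicates 1, 2 and 3, highest in the sample with the highest Vcan signal at each probe set. In heterozygous lenses it was highest in replicate 2, the sample with the lowest Vcan signal at each probe set. Recoverin (Rcvrn), a photoreceptor marker, was at background (9.47 and 10.3). Otx2, a homeobox factor of retina and retinal pigment epithelium, read 169 and 346 on average, with overlap of the genotypes. Without overlap, 3 of the 12 were higher in heterozygous lenses, Neurod1 (135 and 220), Stmn3 (229 and 386) and the dim Rcvrn. Elavl4 was lower without overlap (71.8 and 50.7), so these markers did not all go the same way.

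Endothelium markers summed to 875 to 2067 (wild type) and 1134 to 3691 (heterozygous), with 5 of 12 at a median of at least 50. Of these markers 11 of 12 lay above 0, with a median log2 difference of 0.40, and the median was 0.75, 0.08 and 0.12 in pairs 1, 2 and 3. Their sum was highest in replicate 1 of each genotype, as Vcan was at all 3 probe sets. In that replicate Flt1 alone read 914 (wild type) and 1854 (heterozygous). The peak in replicate 1 was not particular to endothelium, since macrophage, pigment cell and red blood cell sums were also highest there in each genotype. The pigment cell and red blood cell sums were also lowest in replicate 2 of each genotype. The sums of the remaining lists peaked elsewhere in at least 1 genotype. Tek, an endothelial receptor, read 498 ± 113 and 716 ± 183 and the junction protein Cldn5 96.6 ± 54.2 and 154 ± 92.9, while the defining markers Cdh5 (16.6 and 18.6) and Pecam1 (10.6 and 15.8) had low signals. Mesenchyme markers summed to 1511 to 2049 (wild type) and 1337 to 2066 (heterozygous), with 5 of 14 at a median of at least 50 and 6 of 14 above 0 (median −0.05). Their members went both ways. Without overlap, elastin (Eln) was higher in heterozygous lenses (17.7 ± 3.67 and 29.0 ± 2.52) and Pdgfra, a growth factor receptor, lower (618 ± 68.1 and 409 ± 20.1). Foxc1, a factor of periocular mesenchyme (135 ± 81.6 and 257 ± 139), and Pdgfrb (37.7 ± 15.5 and 63.0 ± 32.3) had all 3 pairs above 0, with overlap of the genotypes. The dimmer Dcn (21.2 ± 13.7 and 11.3 ± 1.57) and Lum (15.2 ± 4.03 and 12.6 ± 0.63) had all 3 pairs below 0, also with overlap. Macrophage markers summed to 486 to 1515 and 297 to 1691, with 4 of 12 at a median of at least 50. Of these 10 of 12 lay above 0, with a median of 0.29, and the pair medians were 0.34, 1.23 and −0.41. Glia markers summed to 319.8 to 423 and 336 to 510.3, pigment cell markers to 2203 to 3476 and 1957 to 3237, cornea markers to 62.5 to 64.3 and 63.1 to 64.9, and red blood cell markers to 38.8 to 47.4 and 33.1 to 50.2. All 6 cornea markers were at or under the highest olfactory receptor median. The part of these tissues in the Vcan difference was not tested.

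The genes whose pattern over the 6 arrays was nearest to that of Vcan included genes of retinal progenitors and of cell division. Likeness was measured as the root mean square difference between log2 profiles, each centered on its mean, over 5546 genes with a median signal of at least 50, taken at the brightest probe set. The nearest was Foxn4, a forkhead factor of retinal progenitors, at 0.29. It read 123, 56.5 and 98.6 for wild type and 219, 149 and 163 for heterozygotes. Like the mean profile of the Vcan probe sets, it was thus highest in replicate 1 and lowest in replicate 2 of each genotype. Next came Cdca3, a cell cycle gene (0.33), Atoh7, a factor of retinal ganglion cell formation (0.33), Cdc25a, a phosphatase that drives entry into S phase (0.36), and Kcnk1, a potassium channel (0.37). The Atoh7 probe set has a suffix for probes that can match more than 1 gene, so its signal is uncertain, and Atoh7 is also in the marker list above. The median over the genes compared was 0.85, and the Vcan probe sets lay 0.11 to 0.22 from their own mean profile. The other members lay at 0.72 (Cemip2) to 0.96 (Bcan), and a gene with no variation at all would lie at 0.81. Since Vcan was chosen for its pattern, this is a description.

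Of 76 other genes of the hyaluronan and versican pathway, 59 were measured, each taken at its brightest probe set. None passed the adjusted threshold, where 0.0% of all genes did, and the median difference was 0.01, with 30 of 59 above 0, beside −0.01 and 47.0% over all genes. At an unadjusted p under 0.05 there were 1 on the higher side and 1 on the lower, where 1.12% of genes reached it on either side. Gfpt1, an enzyme of the hexosamine pathway that supplies a sugar of hyaluronan, went from a mean of 8.62 ± 0.65 to 11.8 ± 0.87 (wild type to heterozygous, SD of 3), within the olfactory receptor range. Tnc, tenascin C, a matrix protein that binds lecticans, read 13.3 ± 1.08 and 10.3 ± 1.51. Its median signal of 12.0 was also within the olfactory receptor range.

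By role, the synthesis and precursor genes had a median of 0.08 (4 of 6 above 0). Among them Ugp2 and Ugdh, which make UDP-glucose and UDP-glucuronic acid, read 578 and 607 and 189 and 164 on average in wild-type and heterozygous lenses. All 5 measured breakdown genes lay below 0, with a median of −0.12, but 3 of them had signals at or under the highest olfactory receptor median. The smallest p was that of Spam1 (−0.23 ± 0.16), a sperm hyaluronidase with signals of 8.66 to 12.4. The member hyaluronidases Hyal2 and Cemip2, not counted here, lay above 0. The hyaluronan receptors stood at 0.16 (5 of 6 above 0), with Stab2, a scavenger receptor, at 9.86 and 11.1. The hyaluronan-binding matrix proteins stood at −0.03 (5 of 11 above 0). Only 1 of these 11, Tnfaip6, which transfers heavy chains to hyaluronan, had a median of at least 50 (262 and 330.3 on average), and Ambp, a protease inhibitor precursor, had the smallest p of the list (−0.19 ± 0.11).

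The proteases that cleave versican stood at 0.20 (3 of 4 above 0). Adamts1 among them read 17.8, 20.6 and 25.2 for wild type and 60.2, 22.9 and 14.5 for heterozygotes, so that 1 sample carried its difference of 0.37 ± 0.50. The matrix partners of versican stood at −0.12 (3 of 7 above 0), while Fbln1, fibulin 1, read 55.6 and 89.4 on average, with each of 3 pairs above 0 (0.67 ± 0.33). The enzymes of chondroitin sulfate chains, which are attached to versican, stood at 0.03 (7 of 13 above 0), with Csgalnact1, which starts the chains, at 24.5 ± 6.27 and 35.9 ± 11.2. Other chondroitin sulfate proteoglycans stood at 0.14 (2 of 3 above 0), with Ptprz1, a receptor phosphatase, at 40.4 ± 8.08 and 57.0 ± 22.8. The linkers of Cd44 to actin stood at −0.12 (1 of 4 above 0), and all 4 had a median of at least 50, among them Nf2, merlin, at 151 ± 2.49 and 138 ± 15.8. For the replicate number, 14 of the 59 pathway genes passed the adjusted threshold, where 21.1% of all genes did.

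**Figure D5:**
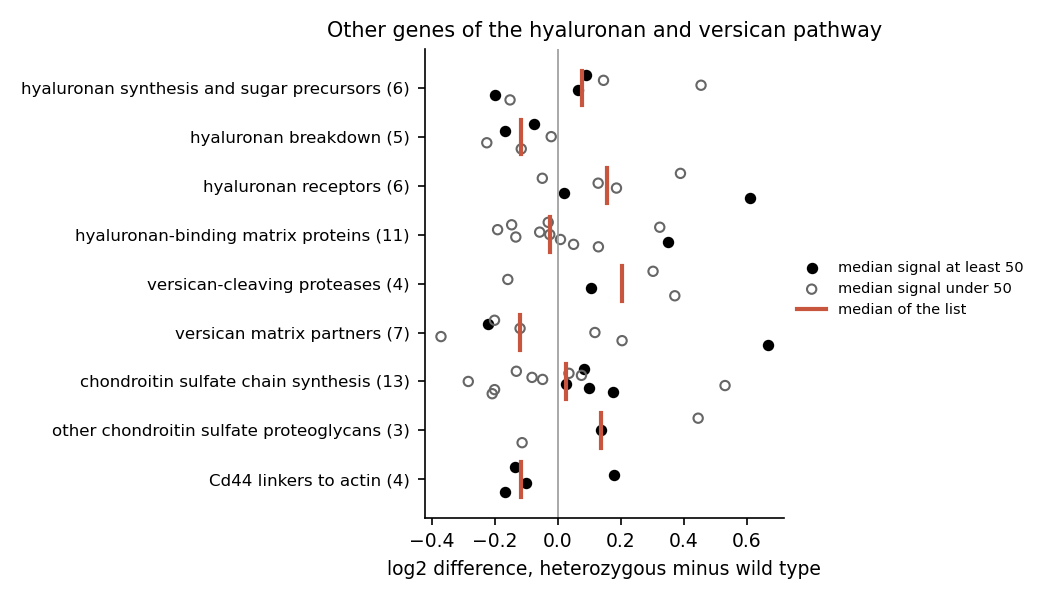
Log2 difference, heterozygous minus wild type, of 59 other pathway genes by role, with the number measured in brackets. Each point is a gene, filled where its median signal is at least 50, and the red mark is the median of the list. The list medians run from −0.12 to 0.20, and no gene passed the adjusted threshold.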

How the data were processed

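Lens RNA of 3 wild-type and 3 Pax6 heterozygous newborn mice was amplified (NuGEN) and hybridized to Affymetrix arrays. Deposited are signal intensities on the linear scale, from RMA run by the authors (version not given in the sources used here). RMA pulls ratios of dim probe sets toward 1. Arrays have no read depth, and their number limits the precision.

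From these, log2 signals were computed without further normalization, and 64 control probe sets were left out. Probe sets were named by the platform annotation, with symbols updated by Entrez number for 20351 of 20380 with 1 gene (691 had several and 1555 none). Genotype and replicate number were tested with limma 3.58.1 in R 4.3.3, adjusted by Benjamini-Hochberg over 22626 probe sets. The unadjusted threshold was 0.05 as well. Every same-numbered pair correlated above 0.1 in its deviations from the genotype mean, so the numbers were taken to pair the samples; the methods use no block, and it was kept as an alternative. Tests were checked on simulated data. Figures used matplotlib 3.10.9.

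The members, lists and tests were chosen with earlier results of these data known. Named were all members, pathway genes with an unadjusted p under 0.05, the gene with the smallest p in each pathway list, the 5 nearest patterns and Pax6. Named marker genes, Ugp2, Ugdh, Tnfaip6, Fbln1 and the olfactory receptor guide were chosen after values were seen. Alternatives were the methods' t-test, quantile normalization, median centring, signal minimums of 50 and 100, an intensity trend with robust prior, the replicate block, gene means and leaving out each sample.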

Additional observations from a re-analysis of the deposited data

How the results depend on the processing

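No member passed the adjusted genotype test under any alternative, including the methods' t-test, and neither did a pathway gene. With the replicate block 2 probe sets of all passed (0 without it), and 7 pathway genes had an unadjusted p under 0.05 (2 without it). It changed no other call. The Vcan differences were 0.98 to 1.89 over all alternatives, all above 0 (adjusted p from 0.233 to 1.0). Members with an unadjusted p under 0.05 numbered 3 or 4, but 1 with a median signal of at least 100 and 2 with gene means, which test fewer rows. Members without overlap were 3 after quantile normalization, where Vcan 1427257_at and 1421694_a_at overlapped, 4 with median centring, where these 2 overlapped too and Ncan 1423604_at, lower in heterozygous lenses, and Hyal2 entered, 3 at a median of at least 50, 1 at 100 and 2 with gene means. For the replicate number, members passing were 1 at a median of at least 100, 4 with the intensity trend, which added Vcan 1427256_at and 1421694_a_at, and 1 with gene means, where Vcan passed (adjusted p = 0.0271) and Cd44 did not (adjusted p = 0.119; from 0.000302 to 0.0151 at 1423760_at under the other alternatives). The share of all probe sets was 50.2% at a median of at least 50 and 55.8% at 100. Pathway genes with an unadjusted p under 0.05 were 0 at both minimums and 1 to 3 with a sample left out, 1 without any single wild-type replicate. Of 204 recomputed differences 18 reversed, at 9 probe sets, by at most 0.38 in size. With gene means Ncan stood at −0.025 and Cd44 at −0.018, and with median centring Hapln1 1421633_a_at stood at −0.018. With a sample left out, the range was −0.23 to 0.12 for Bcan, −0.020 to 0.15 for Ncan 1434679_at, −0.046 to 0.042 for Hapln1 1421633_a_at, −0.092 to 0.0062 for Hapln1 1426294_at, −0.044 to 0.20 for Has2 1449169_at, −0.021 to 0.19 for Has2 1418678_at, −0.14 to 0.0058 for Has3, −0.38 (without heterozygous replicate 3) to 0.34 for Cd44 1423760_at and −0.19 to 0.11 for Cd44 1452483_a_at. The cause of these changes was not tested.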
